A study of Mus musculus with 2 samples.

Results

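The genes described here are the Wnt ligands, their receptors and secreted inhibitors, and a fixed set of pathway members and targets, as named by the design of the array. They were chosen by name alone: every gene called Wnt, Fzd, Sfrp or Dkk followed by its number, together with Lrp5, Lrp6, Axin1, Axin2, Lgr4, Lgr5, Rnf43, Znrf3, Tcf7, Tcf7l1, Tcf7l2, Lef1, Wif1, Nkd1, Notum and Rspo3. This gave 53 of the 30153 genes on the array, read by 68 probes of 60 bases, each printed as 1 spot. RNA of mature hepatocytes (MHs), which were taken from healthy livers of Sox9-EGFP mice and freed of dead cells on a Percoll gradient, was compared with RNA of Sox9+EpCAM- cells, which were collected by FACS as GFP+EpCAM- cells after mice of the same strain had received a diet with DDC, a compound that injures the bile ducts. In both groups the mice carry the reporter, in which GFP marks cells that express Sox9. The age of the mice, the number of mice behind each RNA and the feeding time for the array are not given in the sources used here. There was 1 array per group, so neither an SD nor a test could be given, and differences are described by their size, with a precision limited by the number of arrays.

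Wnt proteins are secreted ligands that bind Frizzled receptors (the Fzd genes) together with the co-receptors Lrp5 and Lrp6. The bound receptor stops the Axin complex from destroying beta-catenin, which then enters the nucleus and acts with the transcription factors of the Tcf and Lef family. Secreted inhibitors act on the ligands (Sfrp, Wif1 and Notum) or on the co-receptors (Dkk proteins), whereas R-spondins, through the Lgr receptors, remove the ubiquitin ligases Rnf43 and Znrf3 that would otherwise clear Frizzled from the membrane. In the healthy liver the pathway is best known for the zone around the central vein, where endothelial cells supply ligands and R-spondin 3 and the adjacent hepatocytes express beta-catenin targets such as glutamine synthetase, Axin2 and Lgr5.

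The arrays shared 1 slide and 1 scan. Each was scaled to the 75th percentile of its intensity, 741 for MHs and 1110 for Sox9+EpCAM- cells. The lowest intensity well above background was 27.8 for MHs and 18.4 for Sox9+EpCAM- cells, and a probe that was dimmer on 1 array gives only a bound, written as at least or at most. The error of a difference between 2 spots, from the error model of the scanner software, was 0.20 to 0.35 on the log2 scale for the 41 probes above background on both arrays, and it covers the reading of the spots, not the variation between mice. Both RNAs are labelled as male, but Xist, an RNA of the inactive X chromosome, read 1940 in MHs and 16.1, below background, in Sox9+EpCAM- cells. The Y-linked genes Ddx3y, Kdm5d, Uty and Eif2s3y showed the reverse, with 140 to 642 in Sox9+EpCAM- cells and below background in MHs. The array labelled MH therefore goes against its label in sex. Diet, isolation and this difference separate the same 2 arrays and cannot be told apart in any value below.

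Of the 53 genes, 32 could be measured on both arrays, 7 were above background in Sox9+EpCAM- cells alone, 1 in MHs alone and 13 in neither. Over all 30153 genes these counts were 19232, 3613, 572 and 6736, so the split of the 53 is near the background. In Sox9+EpCAM- cells 9 genes were higher by 4-fold or more, namely Sfrp1, Axin2, Wnt4, Fzd6, Fzd5, Znrf3, Rnf43, Fzd1 and Dkk3. Lgr5 and Fzd4 were lower by 4-fold or more. The 9 higher genes are 17.0% of the Wnt genes, beside 4.34% of all genes on the array, and the 2 lower genes are 3.77%, beside 4.32% of all genes, which is near the background. Among genes measured on both arrays, 4 of 32 Wnt genes were at least 4-fold higher, or 12.5% beside 3.94% of all such genes, and 1 was at least 4-fold lower, or 3.12% beside 4.75%. The median log2 difference of these 32 genes was 0.06, beside -0.19 for all genes measured on both arrays, and 21 of the 32 (65.6%) were within 2-fold, beside 70.8% of all such genes, which is near the background.

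**Figure D1:**
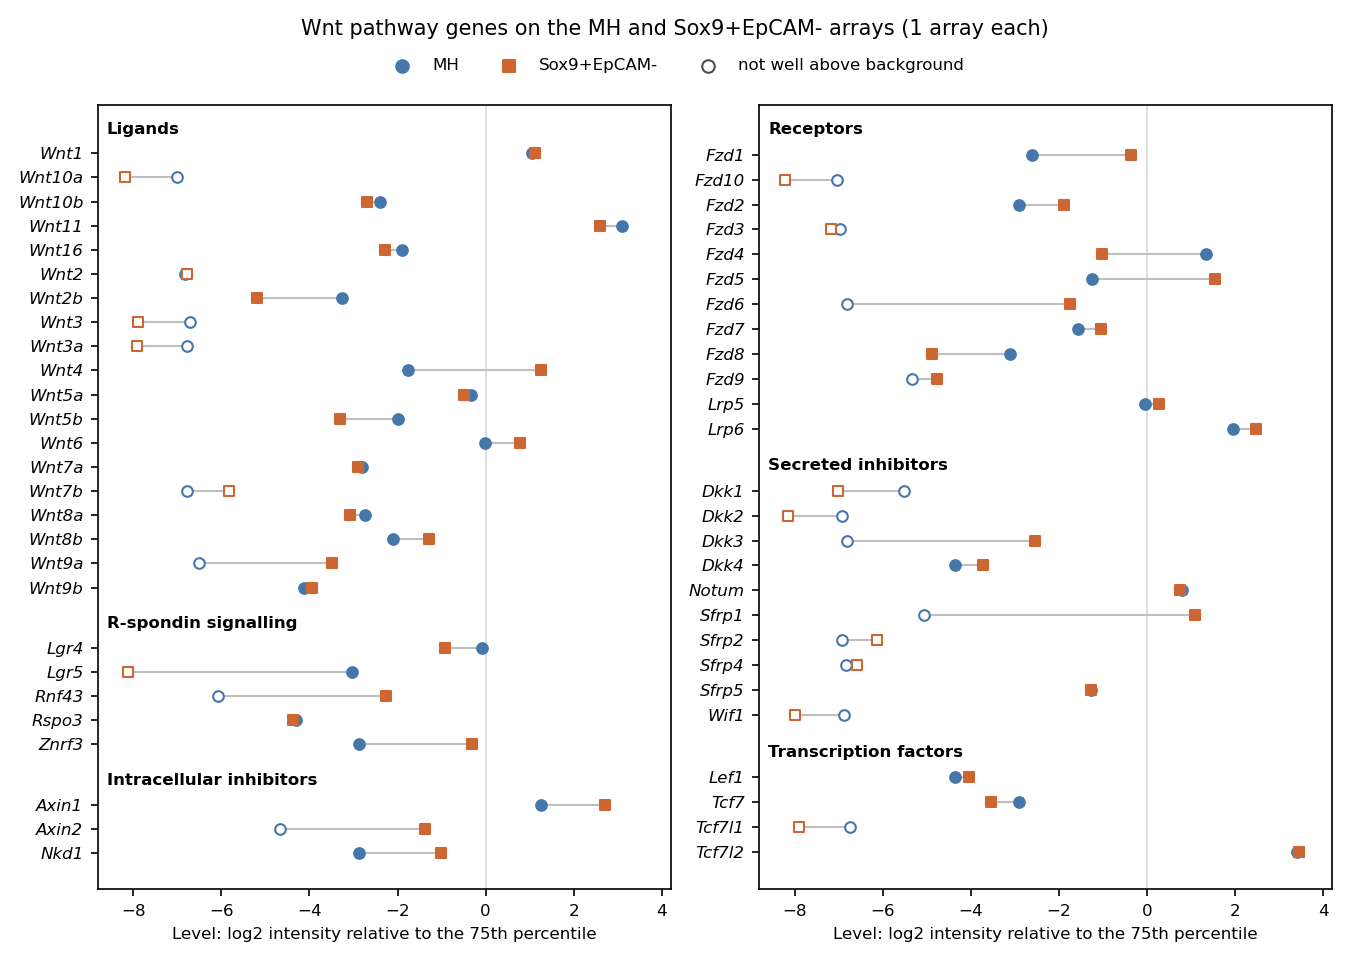
Level of each of the 53 genes on the MH array (circles) and the Sox9+EpCAM- array (squares), as log2 intensity relative to the 75th percentile of the array, by role; open symbols are not well above background. Each gene is read across its own line, since levels of different probes are not comparable. Sfrp1, Axin2, Fzd6, Rnf43 and Dkk3 are open on the MH array and filled on the Sox9+EpCAM- array, and Lgr5 is the reverse.

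**Figure D2:**
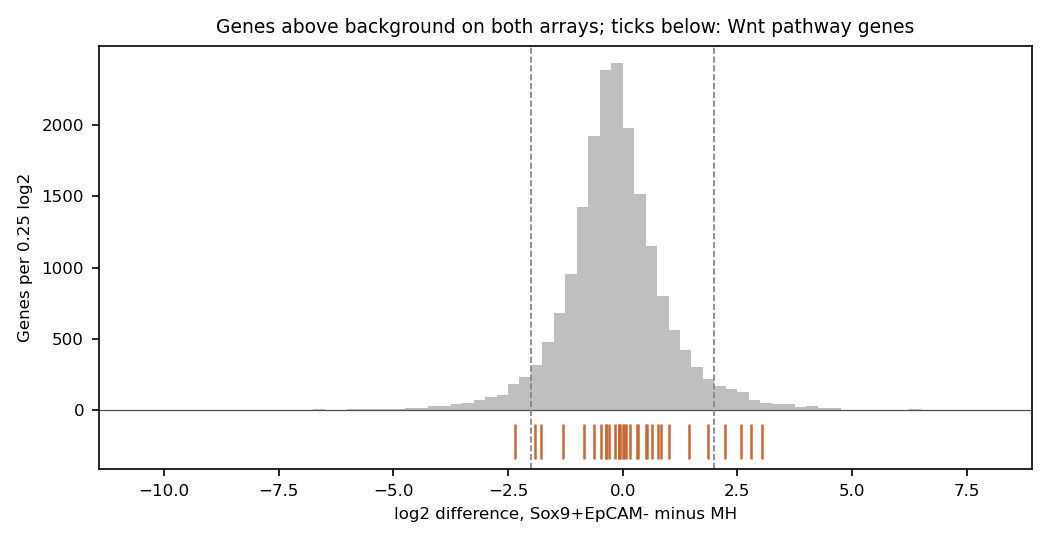
Number of genes per bin of 0.25 in log2 difference (Sox9+EpCAM- minus MH) for the 19232 genes above background on both arrays, with the 32 Wnt genes as ticks below. Dashed lines mark 4-fold. The ticks run from -2.35 to 3.03, with 4 beyond the upper line and 1 beyond the lower.

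Among the 19 ligands, Wnt4 was the only one measured past 4-fold, by 1 of its probes, which is near the background of 4.34% of all genes. Wnt4 is known for its need in kidney and gonad development. Its brightest probe read 217 in MHs and 2660 in Sox9+EpCAM- cells, which is a log2 difference of 3.03, or 8.18-fold, with an error of 0.21. The other probe of Wnt4 read 275 and 721, a log2 difference of 0.81, or 1.75-fold, so both probes were brighter in Sox9+EpCAM- cells but they differed from each other by far more than their errors. The sequences of both are shown because the size of the result rests on which of them is read. The first lies at chr4:136851690-136852258 (mm9, plus strand), where it begins at base 605 of the transcript and spans an exon junction, since its 60 bases are spread over 569 bases of the genome. The second begins at base 3748, at chr4:136855342-136855401, and its first 30 bases are shown.
Wnt4, base 605: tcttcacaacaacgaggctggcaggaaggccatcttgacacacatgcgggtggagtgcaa
Wnt4, base 3748: tatgaggctccttggcattgtgacatcccc
Which isoforms of Wnt4 each probe reads was not tested, and the median over both probes put Wnt4 at a log2 difference of 1.92, under 4-fold.

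No other ligand was shown to differ by 4-fold. Wnt9a, one of the ligands made by endothelial cells and macrophages of the liver, read 8.18 in MHs, not above background, and 98.6 in Sox9+EpCAM- cells, at least 2.37-fold higher, a bound that does not say on which side of 4-fold it lies. Wnt9b read 42.6 and 71.8, a log2 difference of 0.17. Wnt2b had intensities of 76.6 and 30.5, a log2 difference of -1.91, and Wnt5b, a ligand that signals without beta-catenin, had 186 and 112, a difference of -1.31. These are the lowest values among the ligands.
Wnt2, which liver endothelial cells express, was not above background on either array, with intensities of 6.53 and 10.1. The same held for Wnt3, Wnt3a, Wnt7b and Wnt10a, so the arrays give no difference for 5 ligands. The remaining 9 ligands lay within 2-fold, from 0.83 for Wnt8b and 0.78 for Wnt6 to -0.48 for Wnt11. Wnt5a had 589 and 792, a difference of -0.16, and its probe is the only 1 of the 68 that shares a stretch of 20 bases with probes of other genes, beside 7.19% of all probes of the array.
In the genome, 4 pairs of these ligands are neighbours, with probes 19.1 to 90.1 kb apart: Wnt1 and Wnt10b on chromosome 15, Wnt10a and Wnt6 on chromosome 1, and Wnt3 and Wnt9b as well as Wnt3a and Wnt9a on chromosome 11. Wnt1 and Wnt10b were both measured, with log2 differences of 0.08 and -0.30. In each of the other pairs 1 gene was not above background on either array, so the neighbours could not be compared.

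Of the 12 receptor genes, 3 Frizzleds were higher by 4-fold or more, beside 4.34% of all genes, and 1 was lower by that size, beside 4.32%. Fzd5 had intensities of 311 in MHs and 3240 in Sox9+EpCAM- cells by its brightest probe, a log2 difference of 2.80, or 6.95-fold, with an error of 0.21. Its other probe, nearer to the 5′ end of the transcript, gave 295 and 2180, or 4.93-fold, so both probes placed Fzd5 past 4-fold. Fzd1 read 121 and 856, a difference of 2.24, or 4.72-fold. Fzd6, a receptor best known from planar cell polarity, read 6.61 in MHs, not above background, and 333 in Sox9+EpCAM- cells, at least 8.0-fold higher.
Fzd4, which is abundant on endothelial cells and also binds norrin, went the other way. Its intensity was 1860 in MHs and 545 in Sox9+EpCAM- cells, which is a log2 difference of -2.35, or 5.11-fold lower, with an error of 0.20. Fzd8 also had a lower value, 86.5 and 37.7, a difference of -1.78, which is under 4-fold. The Frizzleds therefore did not move as a group: at least 4-fold differences of both directions stand beside Fzd7, which was within 2-fold by both of its probes, with 0.51 and -0.11.
Fzd2 was 2.02-fold higher by its brighter probe, with 99.3 and 300, while its second probe was below background on both arrays. The co-receptors Lrp5 and Lrp6, which every canonical signal needs, were within 2-fold, with log2 differences of 0.32 for Lrp5 and of 0.52 and 0.21 for the probes of Lrp6. Fzd3 and Fzd10 were not above background on either array. Fzd9 read 18.3 in MHs, not above background, and 41.0 in Sox9+EpCAM- cells, but its bound lies under 1-fold, so no difference is given.

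**Figure D3:**
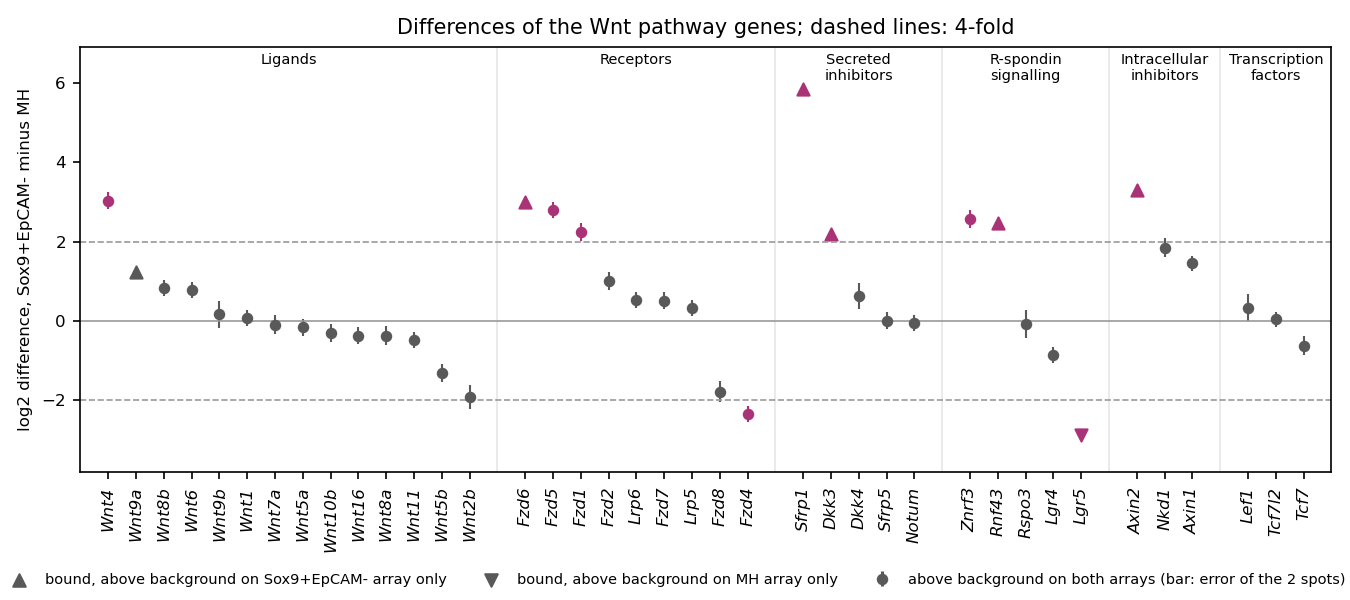
Log2 difference (Sox9+EpCAM- minus MH) of the 39 Wnt genes that have one, by role. Circles are genes above background on both arrays, with the error of the 2 spots as a bar; upward triangles are lower bounds and downward triangles upper bounds; dashed lines mark 4-fold. Sfrp1, with a bound of 5.84, is the only gene above 4, and Lgr5 and Fzd4 are the only genes below -2.

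The largest bound in the set was that of a secreted inhibitor. Sfrp1, a decoy with a Frizzled-like domain that binds Wnt proteins outside the cell, read 22.2 in MHs, not above background, and 2380 in Sox9+EpCAM- cells, at least 57.2-fold higher, a log2 difference of at least 5.84. It has 1 probe, at chr8:24559438-24559497 (mm9, plus strand) and base 3705 of the transcript, and the first 30 of its 60 bases are shown since this result rests on it alone.
Sfrp1, base 3705: ttaaaatagtcattccggagagtcagggaa
Dkk3, a member of the Dickkopf family that does not bind Lrp6 in the way the others do, read 6.57 and 190, at least 4.56-fold higher. This bound sits close to the threshold, with a log2 difference of at least 1.99 after quantile normalization. Notum, an enzyme that strips the lipid from Wnt proteins and is itself a beta-catenin target, was unlike them, with 1290 and 1870 and a log2 difference of -0.05. Sfrp5 had 307 and 463, a difference of 0.01, and Dkk4 had 36.2 and 84.2, a difference of 0.63. Sfrp2, Sfrp4, Dkk1, Dkk2 and Wif1 were not above background on either array, so 5 of the 10 secreted inhibitors give no difference.

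In the R-spondin arm of the pathway, with 5 genes, both ubiquitin ligases were at least 4-fold higher, beside 4.34% of all genes. Lgr5 was lower by that size, beside 4.32%, and 5 genes are too few to read such shares. With the normexp background correction described below, Znrf3, Rnf43 and Lgr5 were each under 4-fold. Znrf3 had intensities of 101 and 898, a log2 difference of 2.57, or 5.94-fold, with an error of 0.22. Rnf43 read 11.0 in MHs, not above background, and 231 in Sox9+EpCAM- cells, at least 5.55-fold higher. Both ligases are beta-catenin targets as well as inhibitors, and each has 1 probe here.
Lgr5, the R-spondin receptor that marks stem cells in the gut and hepatocytes next to the central vein in the healthy liver, was read by a pair of probes, shown since they lie at separate places of the gene and gave the same direction. The brighter probe read 90.4 in MHs and 3.98 in Sox9+EpCAM- cells, at least 7.36-fold lower. The second probe had 60.4 and 4.27, at least 4.92-fold lower. Neither was above background in Sox9+EpCAM- cells. Which isoforms of Lgr5 each probe reads was not tested. They lie at chr10:114900686-114900745 and chr10:114887403-114887462 (mm9, minus strand), and their first 30 bases are shown.
Lgr5, base 3776: acctctagtgcttatatagaaacttgtgtg
Lgr5, base 4618: catgtaaatacgtagtgcttgtaaatagat
Lgr4, the related receptor that hepatocytes express more widely, read 698 and 582, a log2 difference of -0.85. Rspo3, the R-spondin made by endothelial cells around the central vein, read 37.3 and 53.3, a difference of -0.07 with an error of 0.35, so at this signal no difference could be seen.

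Axin1, Axin2 and Nkd1 are inhibitors inside the cell, and Axin2 and Nkd1 are also among the most widely used targets of beta-catenin. All 3 had higher values in Sox9+EpCAM- cells, beside 7714 of the 19232 genes measured on both arrays, and Axin2 was past 4-fold, beside 4.34% of all genes; 3 genes are too few to read such shares. Axin2 read 29.1 in MHs, where it was not well above background, and 428 in Sox9+EpCAM- cells, which is a log2 difference of at least 3.30, or at least 9.82-fold. This value comes from 1 of its probes, while the other, nearer to the 3′ end, had 7.25 and 4.66 and was not above background on either array. Both are shown, the first whole and the second by its first 30 bases, because they disagree on whether Axin2 is detected at all. They lie at chr11:108803927-108803986 and chr11:108812034-108812093 (mm9, plus strand).
Axin2, base 1971: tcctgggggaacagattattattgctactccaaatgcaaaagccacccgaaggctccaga
Axin2, base 4196: cttggtacaataattattgtaattaagaga
Nkd1, which binds Dishevelled, had intensities of 101 and 546 by its brighter probe, a log2 difference of 1.85, or 3.61-fold, just under the threshold, and its other probe was below background on both arrays. Axin1, the subunit that holds the destruction complex together, had 1770 and 7240, a difference of 1.45, or 2.73-fold, with an error of 0.20. Axin1 is not known as a beta-catenin target in the way Axin2 is.

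Of the transcription factors at the end of the pathway, the 3 measured on both arrays were within 2-fold, as were 70.8% of all such genes, which is near the background for so few genes. Tcf7l2, the main member of the family in hepatocytes, had intensities of 7860 and 12100 by its brightest probe, a log2 difference of 0.04, and a second probe gave -0.47 while the third was below background on both arrays. Tcf7 had differences of -0.62 and -0.81 by its probes. Lef1, with 36.0 and 68.1, had 0.34 with an error of 0.35. Tcf7l1 was not above background on either array.

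**Figure D4:**
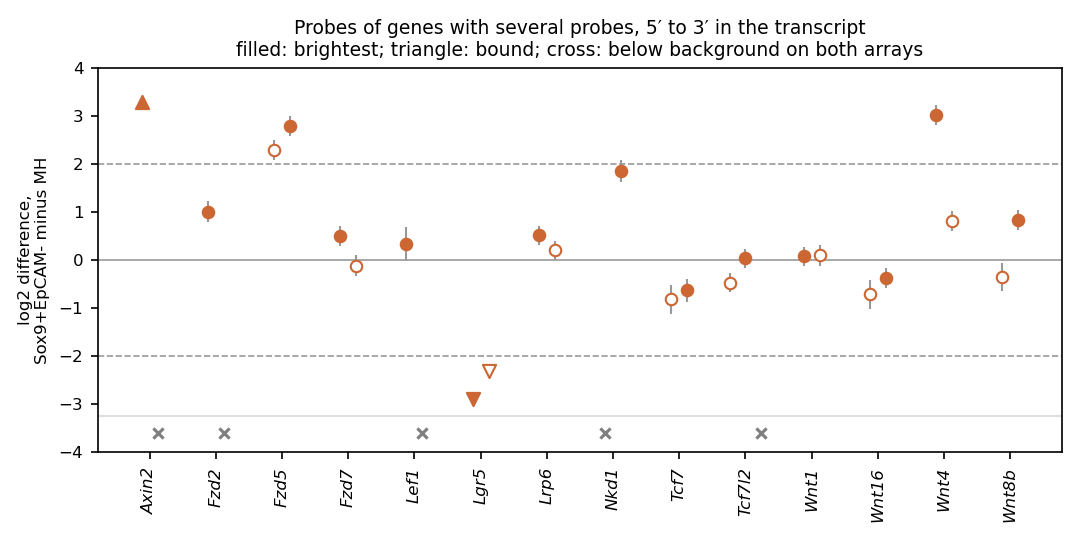
Log2 difference (Sox9+EpCAM- minus MH) of each probe of the 14 Wnt genes that have several, in transcript order. Filled symbols are the brightest probe, triangles bounds and crosses probes below background on both arrays; bars are the error of the 2 spots and dashed lines mark 4-fold. Both probes of Fzd5 lie above 2 and both of Lgr5 below -2, whereas only 1 probe of Wnt4 and of Axin2 is past 4-fold.

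Settings of the processing changed some of these calls. Correction of the background by the normexp method, which adds an offset of 50 and so draws low signals together, left 4 of the 11 genes at least 4-fold different, namely Sfrp1, Wnt4, Fzd5 and Fzd4. Axin2 then had a log2 difference of 1.90, Znrf3 of 1.95, Fzd6 of 1.68, Rnf43 of 1.24, Dkk3 of 0.92 and Lgr5 of -1.69, and Fzd1 was also under 4-fold. No gene past 4-fold changed its sign in any setting. The values of Notum, Rspo3, Sfrp5, Tcf7l2, Wnt1, Wnt5a, Wnt7a and Wnt9b, at most 0.17 in size, are smaller than the shift between scalings and have no direction here. Dkk4, with -0.06, and Lef1, with -0.09, changed sign under normexp, and the second probes of Wnt8b, with -0.35, and Fzd7, with -0.11, opposed the first, so these have no direction either.

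The rest of the pathway was read in 6 further lists. Among 32 genes of the intracellular canonical pathway, which holds Dishevelled, the destruction complex, beta-catenin and its nuclear partners, 0 were at least 4-fold different in either direction, beside 4.34% of all genes higher and 4.32% lower. Within 2-fold were 23 of the 30 measured on both arrays (76.7%, beside 70.8% of all such genes), with a median of 0.10, so these shares are near the background. Ctnnb1, which encodes beta-catenin, read 8070 and 12900, a log2 difference of 0.09.
Of 18 genes for secretion, co-receptors and extracellular modulators, 2 were at least 4-fold higher, beside 4.34% of all genes. Frzb, another secreted decoy of the Sfrp kind, read 5.99 and 296, at least 7.11-fold higher, and Ptk7, a receptor-like protein of planar polarity, read 44.2 and 404, a difference of 2.61. None was at least 4-fold lower. Of 14 planar polarity genes, 4 were at least 4-fold higher, beside 4.34% of all genes, and none was lower by that size, beside 4.32%: Scrib by at least 9.37-fold, Vangl1 by at least 5.96-fold, Nlk by at least 4.39-fold and Prickle3 by at least 4.25-fold. All 4 are bounds from probes below background on the MH array, and the 6 planar polarity genes measured on both arrays had a median of -0.30.

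Target genes did not move in 1 direction. Of 11 genes that depend on beta-catenin in hepatocytes around the central vein, 7 were at least 4-fold lower and 0 higher, beside 4.32% of all genes that were lower by that size, and the median of the 10 measured on both arrays was -3.73. Cyp1a2, a cytochrome P450 of drug metabolism, read 18500 and 84.1, a log2 difference of -8.36. Slc1a2, a glutamate transporter, read 1870 and 41.2, a difference of -6.09, and Cyp2e1, which oxidizes ethanol, read 56100 and 1900, a difference of -5.47.
Lect2 at -5.06, Oat at -4.14, Nr1i3 at -3.32 and Rhbg at -2.89 were the other 4. Glul, the gene of glutamine synthetase and the defining marker of this zone, was below background on both arrays by its 1 probe, with 7.21 and 9.43, so it gives no difference. Of 10 genes of hepatocytes near the portal vein, Ass1 was past 4-fold, at -2.07, beside 4.32% of all genes lower by that size. The other 9 were under 4-fold, with a median of -0.89 for the list. The 7 general hepatocyte markers, which share Cps1 with the portal list, had a median of -1.02. What part a general difference in hepatocyte expression has in the pericentral values was not tested.
Among 18 targets of beta-catenin known from other tissues, 4 were at least 4-fold higher, beside 4.34% of all genes, and none was lower by that size, beside 4.32%, while the median of the 12 measured on both arrays was -0.20, near the -0.19 of all genes. Myc read 350 and 32900, a log2 difference of 5.97, Fosl1 read 6.20 and 6120, at least 147-fold higher, Jun had a difference of 2.49, and Mmp7 was at least 7.28-fold higher. Myc, Fosl1 and Jun are also early response genes that other signals induce. The lowest values were those of Ppard, at -1.78, and Birc5, at -1.72. Among the Wnt genes themselves no fixed list of beta-catenin targets was set, and others than those called targets above may be targets too, so no share is read. Of those called targets above, Axin2, Rnf43 and Znrf3 were at least 4-fold higher, though under 4-fold with normexp and with Axin2 detected by 1 of its probes. Nkd1, at 1.85, and Notum, at -0.05, were under 4-fold, and Lgr5 was at least 4-fold lower, also under 4-fold with normexp.

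**Figure D5:**
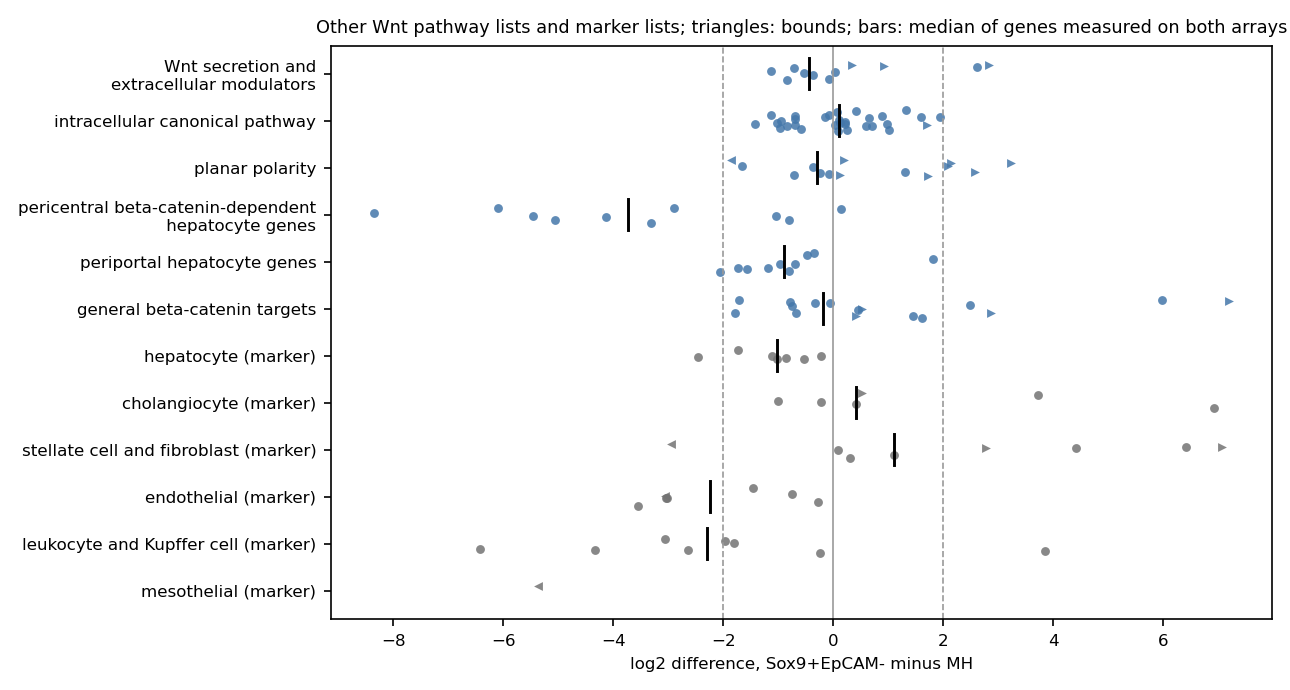
Log2 difference (Sox9+EpCAM- minus MH) of each gene in 6 other Wnt pathway lists (blue) and 6 marker lists of liver cell types (grey); triangles are bounds, black bars the median over genes with a measured difference, and dashed lines mark 4-fold. The pericentral list has its median at -3.73, and no gene of the intracellular list is shown past 4-fold.

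Markers of other liver cells differed between the arrays as well. The counts stand beside 4.34% of all genes at least 4-fold higher and 4.32% lower. In bulk RNA, fewer cells of a type and less RNA per cell cannot be told apart. Of 8 endothelial markers, 4 were lower in Sox9+EpCAM- cells by 4-fold or more, namely Clec4g at -3.55, Tek at -3.04, Stab2 at -3.02 and Cdh5 at -3.07 or below. The summed level of all 8 relative to the 75th percentile was 7.73 in MHs and 2.76 in Sox9+EpCAM- cells. Kdr made 45.1% and 45.7% of these sums, so they do not measure the list as a whole. Pecam1, Kdr and Vwf were under 4-fold, with -0.75, -1.46 and -0.27, and Lyve1 was below background on both. These values lie beside those of Fzd4, which endothelial cells express, and of Wnt9a, Wnt9b and Rspo3, and their part in them was not tested. In the flow cytometry of the study such cells were first gated as CD31-CD45-, which removes endothelial cells and leukocytes, while MHs were only centrifuged; whether this gate was set for the array is not given in the sources used here.
Of 8 markers of leukocytes and Kupffer cells, 4 were at least 4-fold lower (Clec4f, Emr1, Cd74 and Lyz2), while Tyrobp was at -1.80 and C1qa at -1.97, Ptprc was at -0.24 and Cd68 was higher, with 3.85. Their summed level was 24.9 and 3.36, of which Cd74 made 50.5% and 44.7%, so that it does not measure the list as a whole. Of 9 stellate cell and fibroblast markers, 4 were at least 4-fold higher, namely Eln, Col3a1, Col1a1 and Lum, and Lrat was at least 7.70-fold lower. Des, Dcn and Reln were under 4-fold with 0.09, 0.31 and 1.11, and Pdgfrb was below background on both arrays, while the summed level was 11.7 and 41.6, a sum led by the bright probe of Dcn in MHs and of Col3a1 in Sox9+EpCAM- cells, so that it does not measure the list as a whole. Fibroblasts are known to make Sfrp1, Frzb and Dkk3. The Sox9+EpCAM- cells were sorted for GFP, which marks cells that express Sox9. Whether fibroblasts were among them, and their part in these genes, was not tested.
Of 6 cholangiocyte markers, Spp1 and Epcam were at least 4-fold higher, with 6.93 and 3.73, although the cells were sorted as EpCAM-. Krt19 had 0.42, Krt7 -0.23 and Cftr -1.0. In the paper, quantitative PCR beside MHs of DDC-injured livers, not healthy ones, found Epcam, Krt7 and Krt19 not upregulated in Sox9+EpCAM- cells. It found Cftr upregulated in a part of these cells. Sox9 was above background in Sox9+EpCAM- cells alone, with an intensity of 60.7, and the summed level was 1.43 and 45.7, a sum led by the bright probe of Spp1 in Sox9+EpCAM- cells, so that it does not measure the list as a whole either. The part of ductal cells in the higher values of Wnt4, Fzd5, Fzd6 and Axin2 was not tested. All 7 hepatocyte markers were measured on both arrays, with a median of -1.02 and values from -0.23 for Hnf4a to -2.46 for Tat. Alb, Apoa1, Ttr, Tdo2 and Cps1 lay between them. Of 3 mesothelial markers, Wt1 was at least 41.6-fold lower, while Msln and Upk3b were below background on both arrays.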

How the data were processed

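RNA of MHs and of Sox9+EpCAM- cells was hybridised to 1 Agilent mouse array each. The authors deposited spot intensities from Feature Extraction 10.7.3.1 (background subtracted, trends over the slide removed, no normalization between arrays), with spot errors and flags. They also deposited a table of ratio values, each the intensity divided by the median of its array. Probe coordinates are on mm9, per the file headers.

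Intensities were divided by the 75th percentile of the array over 43020 spots that are not controls and taken to log2. Spots marked as not uniform or as outliers were left out, and the brightest probe stood for a gene. A probe too dim on 1 array was raised to the lowest intensity marked well above background there, unless its own was higher. The rule of size was 4-fold. Every gene of the set above background on an array may be named, and of other lists those past 4-fold, with all markers except 1 that is not reported here; Ctnnb1, Glul, Ppard and Birc5 were named after their values were seen. Genes and lists were chosen with earlier results of these data known. All 53 symbols are current in RefSeq (GRCm38.p6), and sequences are those of the array design. Alternatives were normexp (limma 3.58.1, R 4.3.3), other scalings, probe and spot choices, the deposited table and thresholds of 2-fold and 10-fold. Python 3.11.15, pandas 2.3.3 and numpy 2.4.6 were used, and the scripts were tested on simulated data.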

Additional observations from a re-analysis of the deposited data

How the results depend on the processing

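With 9 Wnt genes at least 4-fold higher and 2 lower as reported, normexp background correction gave 3 higher and 1 lower, only genes above background on both arrays gave 4 and 1, and a threshold of 10-fold gave 1 and 0, or 1.89% and 0% beside 1.2% and 1.14% of all genes, which is near the background. A threshold of 2-fold gave 13 higher and 5 lower, beside 11.0% and 13.0% of all genes. The normexp offset and the smaller set of genes lower such counts by construction: with normexp, 2.03% of all genes were at least 4-fold higher and 2.19% lower, beside 5.66% and 1.89% of the Wnt genes. In the other settings the counts were 8 to 10 higher and 2 or 3 lower. Quantile normalization lost Dkk3 and added Wnt2b, at -2.12, scaling to Gapdh added Nkd1, at 2.12, the deposited table added Wnt2b, the median over all probes lost Wnt4, and plain differences without the bound added Wnt9a. Scaling to Gapdh shifted the median of all genes by 0.27 and the deposited table by -0.18 on the log2 scale, and the share of all genes at least 4-fold higher and lower became 5.47% and 3.34%, or 3.75% and 5.18%. The median of the Wnt genes measured on both arrays ranged from -0.11 to 0.33. The counts of the other pathway lists, 10 higher and 8 lower, were 8 to 12 and 7 to 8 under the other scalings. The lists were not counted with normexp or in the remaining settings, so whether their bounds hold there was not tested. Of 312 differences of single Wnt genes in the alternative settings, normexp included, 19 moved by more than 1.5-fold and 0 changed sign from a 4-fold call. Signal over background limits Sfrp1, Axin2, Fzd6, Rnf43, Dkk3 and Lgr5, which have only bounds. No paired analysis was possible because there is only 1 array of each kind; for the same reason the slide could not be a block and no array could be left out.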
